A study of Mus musculus with 12 samples.

Results

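Sialyltransferases are the Golgi enzymes that place sialic acid at the ends of sugar chains on proteins and lipids. The 10 genes described here are *St3gal1*, *St3gal2*, *St3gal3*, *St3gal4*, *St3gal5*, *St3gal6*, *St6gal1*, *St8sia1*, *St8sia4* and *St8sia6*, taken by their symbols as 10 of the 41128 genes in an RNA sequencing table of mouse spleen lymphocytes. The table holds 12 libraries from C57BL/6J mice aged 6 to 8 weeks, in 4 groups of 3. These are resting B cells without CD43 on their surface, of either sex (libraries 1 to 3 in each), and naive CD4+ T cells, again of either sex (libraries 4 to 6 in each). The labels name no transgene, deletion or treatment for any group. The T cells were enriched on magnetic columns and then sorted for a naive surface phenotype that included CD44 low and CD25 negative. The series describes its replicates as pooled, so that p-values measure the spread between pools of mice. Values are named adjusted TPM. TPM is an abundance per transcript length, on which levels of different genes can be set side by side, and how it was adjusted is not given in the sources used here. No read counts were used and the depth is unknown.

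Each enzyme family makes 1 kind of bond. St6gal1 adds sialic acid in an alpha2,6 bond to N-glycans and makes the structure that the B cell receptor inhibitor CD22 binds. The St3gal enzymes add it in an alpha2,3 bond, to N-glycans, to O-glycans or, for St3gal5, to the glycolipid lactosylceramide, which gives the ganglioside GM3. The St8sia enzymes extend a chain that already ends in sialic acid with an alpha2,8 bond. In lymphocytes these caps are known to set binding by lectins of the Siglec family and to be remodelled on activation.

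In B cells *St3gal6*, *St3gal3*, *St3gal5* and *St8sia4* were higher than in T cells, and in T cells *St8sia1*, *St8sia6* and *St3gal4* were higher than in B cells. *St6gal1*, *St3gal1* and *St3gal2* were higher in B cells by less than a log2 difference of 0.35. The widest gap was that of *St8sia1*, whose mean adjusted TPM was 22.0 ± 2.09 in T cells against 0.105 ± 0.0208 in B cells (SD, n = 6 each). None of the 10 genes was called between females and males in either cell type, where 0.144% of all tested genes were called in B cells and 0.104% in T cells.

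Reference promoters are printed for genes on both sides of this contrast. Starts of transcripts were not measured, so the windows show annotated starts. They are the 250 bases before the RefSeq start (GRCm38.p6), on the gene's own strand, for *St8sia1* (higher in T cells; chr6:142964453-142964702, minus strand) and for *St3gal6* (chr16:58524254-58524503, minus strand), *St3gal3* (chr4:118134947-118135196, minus strand) and *St8sia4* (chr1:95667595-95667844, minus strand), which were higher in B cells. A RefSeq promoter entry was found for 8 of the 10 genes, and the printed windows hold no annotated exon of the gene. The 3 windows of *St6gal1* hold none either and were left out because its difference was small. Capitals mark matches on either strand to the letters of 4 motifs. The letters searched for the TCF/LEF motif were CTTTGA, those for the RUNX motif of lymphocyte factors were TGTGGT, those for the ETS motif were CCGGAA, and those for the TATA box were TATAAA.
St8sia1: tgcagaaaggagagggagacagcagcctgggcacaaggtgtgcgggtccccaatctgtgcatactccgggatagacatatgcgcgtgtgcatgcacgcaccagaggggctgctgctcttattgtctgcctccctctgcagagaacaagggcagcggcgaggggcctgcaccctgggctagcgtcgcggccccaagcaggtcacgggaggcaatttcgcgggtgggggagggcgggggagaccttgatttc
St3gal6: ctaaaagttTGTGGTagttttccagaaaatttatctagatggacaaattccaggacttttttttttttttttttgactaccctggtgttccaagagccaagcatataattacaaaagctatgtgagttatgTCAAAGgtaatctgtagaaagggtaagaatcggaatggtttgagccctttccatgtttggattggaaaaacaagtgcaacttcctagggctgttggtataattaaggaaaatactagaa
St3gal3: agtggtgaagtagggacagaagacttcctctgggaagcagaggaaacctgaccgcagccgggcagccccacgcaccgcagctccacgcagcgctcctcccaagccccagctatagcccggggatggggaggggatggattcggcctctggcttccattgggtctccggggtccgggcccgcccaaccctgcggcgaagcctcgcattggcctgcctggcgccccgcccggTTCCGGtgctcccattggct
St8sia4: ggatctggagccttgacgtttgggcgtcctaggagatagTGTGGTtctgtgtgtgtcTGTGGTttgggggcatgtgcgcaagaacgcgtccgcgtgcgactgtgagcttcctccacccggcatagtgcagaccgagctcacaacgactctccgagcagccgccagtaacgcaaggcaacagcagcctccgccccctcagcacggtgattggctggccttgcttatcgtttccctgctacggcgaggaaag
The *St8sia1* window held none of these letters. That of *St3gal6* held the RUNX letters at 241 and the TCF/LEF letters at 119 bases before the start, that of *St3gal3* the ETS letters at 20 bases, and that of *St8sia4* the RUNX letters at 211 and 193 bases. Of the windows not printed, that of *St8sia6*, higher in T cells, held the TCF/LEF letters at 62 bases and lies in annotated exons. Those of *St3gal4*, *St3gal5*, *St6gal1* and the other start of *St3gal6* held none. The TCF/LEF letters stood in windows of genes of both directions. The RUNX and ETS letters stood only in windows of genes higher in B cells. Whether the letters go with the direction was not tested. Over the 32851 RefSeq promoters, windows of this length held the TCF/LEF letters in 13.8%, the RUNX letters in 14.0%, the ETS letters in 12.03% and the TATA box letters in 12.4%. The G and C content was 63.6% for *St8sia1* (14 CpG), 68.4% for *St3gal3* (18 CpG), 60.4% for *St8sia4* (19 CpG) and 34.8% for the printed start of *St3gal6* (1 CpG), against a median of 52.4% and 6 CpG over all promoters. The other start of *St3gal6* was at 64.4% (16 CpG). *St6gal1* has 3 RefSeq starts, and values per gene do not tell which start was used.

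**Figure D1:**
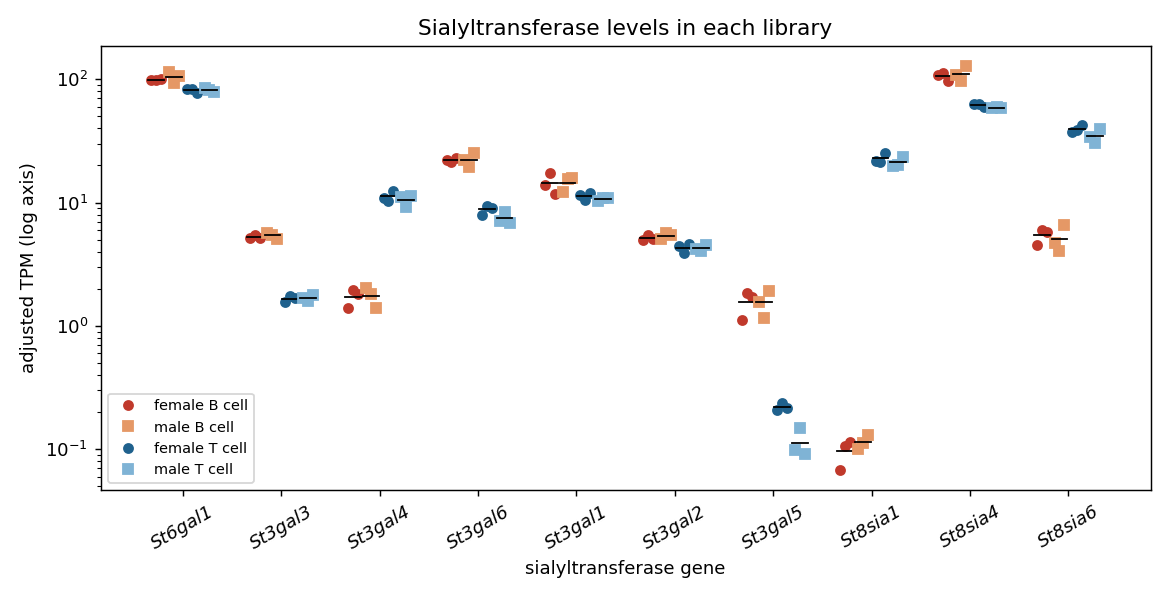
Adjusted TPM (vertical, log axis) of the 10 genes in each library, with circles for females, squares for males, red and orange for B cells, blue for T cells, and a black bar at each group's mean of 3 libraries. *St8sia1*, *St8sia6* and *St3gal4* sit higher in every T cell library, *St3gal1* overlaps between the cell types, and the other 6 genes sit higher in every B cell library.

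The comparison of B with T cells asks which transcripts differ between the 2 lymphocyte lineages. Each value was taken as log2(adjusted TPM + 1), genes at 1 or more in at least 3 libraries were kept (12520 genes, all 10 sialyltransferases among them), and limma fitted the 4 group means. A gene was called at a Benjamini-Hochberg adjusted p under 0.05 over all genes kept. All 10 genes were called, of which 7 had the higher level in B cells and 3 in T cells. Of all genes kept 73.0% were called, 31.4% with the higher level in B cells and 41.6% with the higher level in T cells, so that a call by itself sets a gene apart from few others. The libraries of the 2 cell types did not overlap for 9 of the 10 genes, against 53.9% of all genes kept. *St3gal5* passed the filter through B cells alone and *St8sia1* through T cells alone, so the filter fixed the direction of these 2 genes. An absolute log2 difference of at least 1 was reached by 6 called genes, these 2 among them, against 21.6% of all genes kept. Over the 10 genes the log2 differences had a median of 0.32, against -0.09 over all genes kept. In bulk samples fewer expressing cells and less RNA per cell cannot be told apart.

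Among the alpha2,8 enzymes, *St8sia1* (chr6:142821545-142964452, minus strand) encodes GD3 synthase, which adds a second sialic acid to GM3. Its adjusted TPM in B cells was 0.0683 at the lowest, 0.109 at the median and 0.131 at the highest, and in T cells 19.9, 21.6 and 25.3. Every T cell library was far above every B cell library. The ratio of the means was 209, and the lowest deposited lower bound in T cells (18.5) was still 102 times the highest upper bound in B cells (0.181). On the log2(adjusted TPM + 1) scale, which understates changes of low genes, B minus T was -4.38 (SE 0.06, limma adjusted p = 4.43e-15). As the gene passed the filter through T cells alone, this p-value adds no support to the direction. *Gm7457*, on the opposite strand, shares 149 exon bases with *St8sia1* and reached 0.0127 in B cells against 1.22 in T cells.

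*St8sia6* (chr2:13651021-13794064, minus strand) encodes an enzyme that forms disialyl groups, mainly on O-glycans. It ran from 4.07 through a median of 5.27 to 6.54 in B cells and from 30.6 through 37.9 to 42.5 in T cells. The groups did not overlap, and the ratio of the T to the B cell mean was 6.99. B minus T was -2.60 on the log2 scale (SE 0.10, limma adjusted p = 8.39e-11).

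*St8sia4* (chr1:95587682-95667571, minus strand) encodes a polysialyltransferase, which builds long sialic acid chains on carriers such as NCAM. In B cells its lowest, median and highest levels were 96.2, 109 and 128, and in T cells 58.0, 59.5 and 63.1. It was thus abundant in both cell types and higher in every B cell library. B minus T was 0.83 on the log2 scale (SE 0.07, limma adjusted p = 1.83e-07), opposite in sign to the other 2 alpha2,8 genes.

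*St6gal1* (chr16:23224740-23360350, plus strand), the alpha2,6 enzyme of N-glycans, ran from 93.4 through 99.8 to 114 in B cells and from 77.0 through 83.0 to 85.3 in T cells. All B cell libraries were above all T cell libraries, with a ratio of the means of only 1.24. B minus T was 0.31 on the log2 scale (SE 0.06, limma adjusted p = 0.000304). *BC106179*, on the opposite strand, shares 200 exon bases with it and reached 2.12 in B cells and 7.29 in T cells.

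The 3 alpha2,3 enzymes that act mainly on N-glycans did not move together. *St3gal6* (chr16:58468125-58524243, minus strand) was at 19.4, 22.1 and 25.2 (lowest, median, highest) in B cells and at 6.84, 8.14 and 9.33 in T cells. *St3gal3* (chr4:117932154-118134914, minus strand) was at 5.11, 5.31 and 5.70 in B cells and at 1.57, 1.68 and 1.77 in T cells. Both were higher in every B cell library. B minus T on the log2 scale was 1.35 for *St3gal6* (SE 0.07, limma adjusted p = 2.26e-09) and 1.25 for *St3gal3* (SE 0.05, limma adjusted p = 2.16e-10).

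*St3gal4* (chr9:35046576-35119268, minus strand), whose product is a part of selectin ligands, went the other way. Its level was 1.39 at the lowest, 1.81 at the median and 2.02 at the highest in B cells. In T cells the same 3 values were 9.17, 11.1 and 12.4. No library of 1 cell type reached the range of the other, and B minus T was -2.12 on the log2 scale (SE 0.09, limma adjusted p = 1.05e-10). *4930581F22Rik*, on the opposite strand, shares 412 exon bases with *St3gal4* and was also higher in T cells, at up to 19.2 against up to 4.34 in B cells. Whether the counting used strand is not given in the sources used here, and the part of this neighbour in the *St3gal4* value was not tested. For *St3gal6* the opposite gene is *Dcbld2*, with 1603 shared exon bases and no more than 0.729 in B cells or 0.746 in T cells.

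*St3gal1* (chr15:67102875-67176830, minus strand) and *St3gal2* (chr8:110919922-110972480, plus strand) encode the enzymes that cap core 1 O-glycans. *St3gal1* ran from 11.7 through 14.7 to 17.4 in B cells and from 10.3 through 10.9 to 12.03 in T cells, and was the only one of the 10 genes whose B and T cell libraries overlapped. *St3gal2* ran from 5.01 through 5.25 to 5.64 in B cells and from 3.87 through 4.32 to 4.59 in T cells, without overlap. B minus T was 0.34 on the log2 scale for *St3gal1* (SE 0.09, limma adjusted p = 0.00473) and 0.25 for *St3gal2* (SE 0.06, limma adjusted p = 0.0021). Within 1 sex *St3gal1* passed in males (0.39, limma adjusted p = 0.0196) and not in females (0.29, limma adjusted p = 0.065), and the other 9 genes passed in both, against 62.7% of all genes kept that passed in females and 62.3% in males. The *St3gal1* contrast of females minus that of males was -0.10 (limma adjusted p = 1.00), so it was not shown to differ.

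*St3gal5* (chr6:72097592-72154571, plus strand) encodes GM3 synthase, whose product is the substrate of St8sia1. It was low throughout, at 1.12, 1.65 and 1.92 (lowest, median, highest) in B cells and at 0.0925, 0.178 and 0.236 in T cells. All B cell libraries were above all T cell libraries, and the ratio of the B to the T cell mean was 9.36. B minus T was 1.12 on the log2 scale (SE 0.09, limma adjusted p = 1.54e-07), which understates changes of low genes. Since *St3gal5* passed the filter through B cells alone and *St8sia1* through T cells alone, the filter fixed the direction of both, and their values are a description. The ratio of *St8sia1* to *St3gal5* within a library, which no scaling between libraries can alter, had a median of 0.0651 in B cells (0.0571 to 0.0965) against 126 in T cells (90.6 to 255).

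The deposited values were also tested gene by gene, without a model across genes. An exact two-sided permutation test of 6 against 6 libraries gave p = 0.00216, the smallest it can give, for 9 genes and p = 0.00433 for *St3gal1*. *St8sia1* and *St3gal5* are among the 9, and for them the filter had fixed the direction. Both this test and the limma fit take libraries as independent, although same-numbered female and male T cell libraries deviated together. Their p-values for B against T cells may therefore be too small. The scaling between libraries bears on the small differences. When each library was scaled to a total of 1000000, the median over all genes kept went from -0.09 to 0.25, the split of called genes went from 43.0% to 70.8% higher in B cells, and *St6gal1*, *St3gal1* and *St3gal2* went to 0.69, 0.70 and 0.58. Measured from that median, *St6gal1* was at 0.40 as deposited and at 0.43 on the new scale, *St3gal1* at 0.43 and 0.45, and *St3gal2* at 0.34 and 0.32. All 10 genes kept their direction and their call under each of the 3 other scalings.

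**Figure D2:**
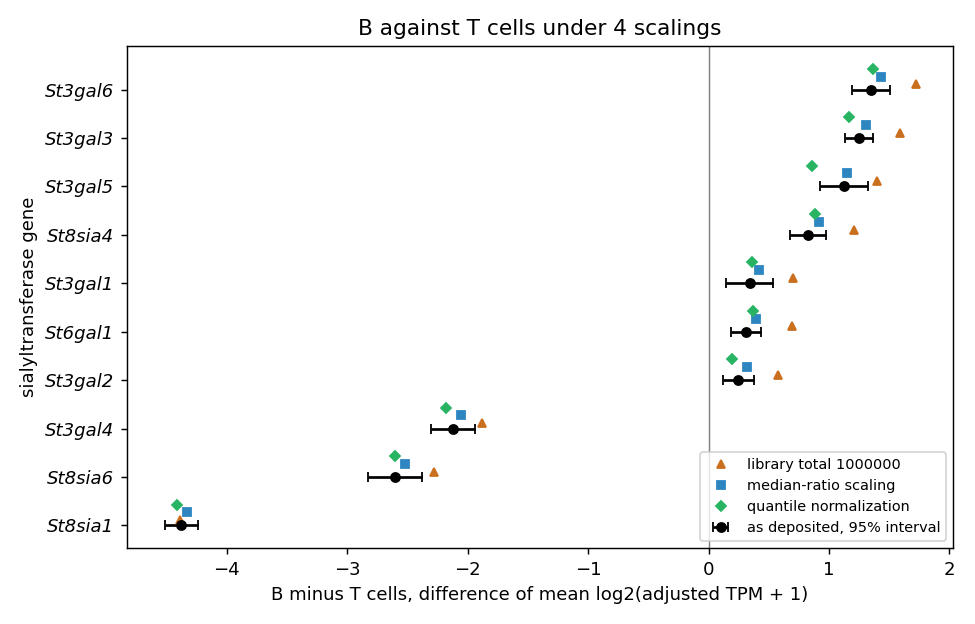
Difference of mean log2(adjusted TPM + 1), B minus T cells (horizontal), for each gene, with black circles and 95% intervals for the deposited values and coloured marks for 3 other scalings. *St8sia1* (-4.38), *St8sia6* (-2.60) and *St3gal4* (-2.12) lie left of 0 under all 4, and the other 7 genes lie right of it.

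The order of the levels differed between the cell types. In B cells *St8sia4* (108 ± 11.6, mean and SD, n = 6) and *St6gal1* (102 ± 7.22) came first and overlapped, *St8sia4* being higher in 4 of 6 libraries. *St3gal6* (22.2 ± 1.93) and *St3gal1* (14.4 ± 2.22) followed, each apart from its neighbours. *St3gal3* (5.35 ± 0.232), *St8sia6* (5.29 ± 0.976) and *St3gal2* (5.27 ± 0.265) could not be ordered beyond their spread. The same held for *St3gal4* (1.73 ± 0.271) and *St3gal5* (1.56 ± 0.348), and *St8sia1* was last.

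In T cells *St6gal1* (81.8 ± 3.23) was first, above *St8sia4* (60.3 ± 2.19), *St8sia6* (37.0 ± 4.24) and *St8sia1* (22.0 ± 2.09), with no overlap between neighbours. *St3gal1* (11.1 ± 0.639) and *St3gal4* (10.9 ± 1.08) overlapped and changed places when ordered by the median. *St3gal6* (8.11 ± 1.009) overlapped *St3gal4* in range but was below it in 6 of 6 libraries. *St3gal2* (4.28 ± 0.284), *St3gal3* (1.67 ± 0.0789) and *St3gal5* (0.167 ± 0.0624) closed the order without overlap.

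The summed level of the 10 genes was 266 ± 18.6 in B cells and 237 ± 7.11 in T cells. *St6gal1* and *St8sia4* together made up 79.0% ± 1.05 of it in B cells and 59.9% ± 2.48 in T cells. The 3 alpha2,8 genes held 42.7% ± 1.91 in B cells and 50.2% ± 1.53 in T cells, but through different members. *St8sia4* was 20.9 ± 3.10 times *St8sia6* within B cell libraries and 1.65 ± 0.193 times within T cell libraries. *St3gal6* was likewise 13.2 ± 3.09 times *St3gal4* in B cells and 0.754 ± 0.129 times in T cells.

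**Figure D3:**
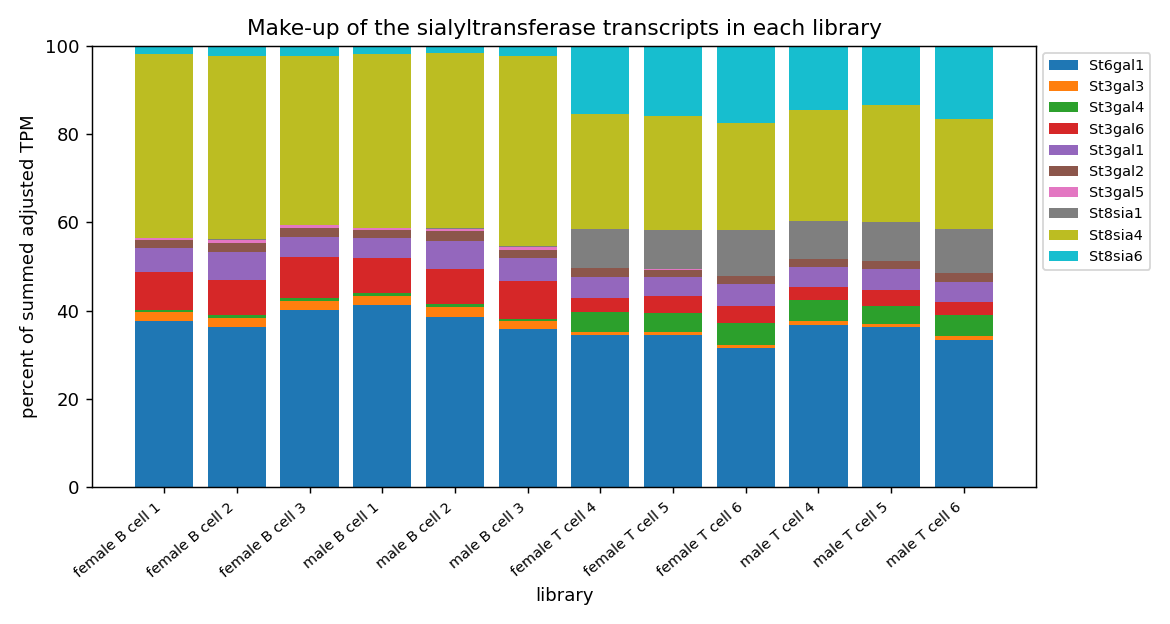
Share of each gene in the summed adjusted TPM of the 10 genes (vertical, percent, bars from 0 to 100) in each of the 12 libraries. *St6gal1* and *St8sia4* fill 79.0% on average in B cells and 59.9% in T cells, where *St8sia6* (15.6%) and *St8sia1* (9.28%) take up most of the rest.

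The sexes were set against each other in B cells and in T cells separately. In B cells limma called none of the 10 genes (none at an unadjusted p under 0.05 either), against 0.144% of all genes kept. Female minus male differences ran from -0.07 (*St6gal1*) to 0.09 (*St8sia6*) on the log2 scale, and their 95% intervals lay between -0.30 and 0.41. The sexes overlapped for all 10 genes in B cells, where 7.20% of all genes kept did not overlap. In T cells limma again called none (none at an unadjusted p under 0.05), against 0.104% of all genes kept, with differences from -0.01 (*St6gal1*) to 0.21 (*St3gal6*, limma adjusted p = 1.00) and 95% intervals between -0.20 and 0.51.

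*St3gal5* was the only one of the 10 genes whose sexes did not overlap in T cells, against 8.49% of all genes kept. Its levels were 0.208, 0.236 and 0.217 in the 3 female and 0.0990, 0.148 and 0.0925 in the 3 male T cell libraries. The deposited intervals overlapped, from 0.117 upward in females and up to 0.243 in males. The female minus male difference was 0.13 on the log2 scale (limma adjusted p = 1.00).

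The difference of the sex effects between B and T cells was called for none of the 10 genes (none at an unadjusted p under 0.05) and for 0% of all genes kept by limma, with 295 genes at an unadjusted p under 0.05. Differences of the 10 genes ran from -0.21 (*St3gal6*) to -0.03 (*St3gal3*). The sample codes carry a further number, 1 or 2, of a meaning the labels do not give, and it divides the groups as this contrast does, so that it and this contrast cannot be told apart.

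Spread between libraries was smallest for *St3gal3*, with a within-group SD of 0.05 on the log2 scale, and largest for *St8sia6* (0.20) and *St3gal1* (0.17), against a median of 0.13 over all genes kept. The deposited intervals were narrow for the abundant genes, with an upper bound at the median 1.05 times the lower bound for *St6gal1* in both cell types. They were wide for low genes, at 2.32 times for *St8sia1* in B cells and 3.10 times for *St3gal5* in T cells.

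The cell types were checked against marker genes. The summed level of 4 B cell markers (*Cd79a*, *Cd79b*, *Ms4a1*, *Pax5*) was 2220.4 to 2643 in B cells and 0.896 to 4.91 in T cells, highest in female T cell 6. That of 5 T cell markers (*Cd3d*, *Cd3e*, *Cd3g*, *Cd4*, *Lck*) was 9.25 to 13.8 in B cells, with 4 of the 5 below 1 in every library, and 1044 to 1328 in T cells. Lists of other cells moved with the genes higher in B cells, namely 4 monocyte or macrophage genes (11.9 to 16.02 in B cells, 1.07 to 5.34 in T cells), 3 platelet genes (4.05 to 16.9 against 0.343 to 0.612) and 4 plasma cell genes (100 to 185 against 26.7 to 33.3). Of the last list *Jchain*, *Sdc1* and *Xbp1* were called higher in B cells, while *Prdm1*, which encodes the plasma cell regulator Blimp-1, was called higher in T cells (-0.67 on the log2 scale). *Jchain* and *Sdc1* passed the filter through B cells alone and *Prdm1* through T cells alone. The part of these lists in the *St3gal5*, *St3gal6* and *St3gal3* differences was not tested. The sums of 3 neutrophil genes (at most 2.56) and 3 natural killer cell genes (at most 1.38) were low in all 12 libraries, and 3 erythroid genes varied from 0.912 to 198 without a call between the cell types. Of 2 CD8 T cell genes, *Cd8b1* was at 5.25 to 8.11 in T cells and was called higher there. *Cd8a* was below 1 in all T cell libraries and was called higher in B cells (0.99 on the log2 scale). *Cd8b1* passed the filter through T cells alone and *Cd8a* through B cells alone, so the filter fixed the direction of both. *Cd69*, *Il2ra* and *Cd44*, genes of activated T cells, summed to 49.4 to 107 in T cells and to 64.1 to 89.7 in B cells. *Cd44* was called higher in B cells (1.36 on the log2 scale), and *Cd69* and *Il2ra* were not called.

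Library totals of adjusted TPM ran from 561020 to 1453940, and 11122 to 11543 genes were at 1 or more. A single gene took 11.4% to 37.4% of a library's total.

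The rest of the pathway was followed in 8 lists, read against the -0.09 median and the 73.0% of all genes kept that were called. Of 10 other sialyltransferases only 4 passed the filter, and 3 were called higher in B cells and 1 in T cells (median log2 difference 0.88). *St6galnac3* and *St6galnac6* passed the filter through B cells alone and *St6galnac2* through T cells alone. The filter therefore bears on this split and median, which are a description. *St6galnac4*, which adds an alpha2,6 sialic acid to sialylated core 1 O-glycans, was at a median of 15.6 in B cells against 5.92 in T cells (1.28 on the log2 scale). *St6galnac6* (0.90) and *St6galnac3* (0.86) followed. The ratio of *St3gal1* to *St6galnac4* within a library was 0.934 ± 0.164 in B cells and 1.92 ± 0.256 in T cells.

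Of 7 genes of sialic acid supply 6 passed the filter, with 1 called higher in B cells and 2 in T cells (median -0.12). *Cmas*, which makes the activated donor CMP-sialic acid, was at a median of 18.4 in B cells against 40.3 in T cells (-1.13 on the log2 scale), and *Nans*, the sialic acid synthase, was at -0.54. *Cmah*, which turns the donor into its glycolyl form, was higher in B cells at 0.36. *Slc35a1*, the Golgi carrier of the donor, was at -0.02 and was not called. Of 5 genes of the sialidase list 3 passed the filter (median -0.29). The sialidase genes *Neu3* (-0.91) and *Neu1* (-0.29) were higher in T cells, and *Ctsa* (0.72), which encodes the protease cathepsin A that protects Neu1, was higher in B cells. *Neu3* passed the filter through T cells alone, so its value is a description.

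Among 9 Siglec receptor genes only 2 passed the filter, and both were called higher in B cells (median 7.68). Both passed through B cells alone, so the filter fixed their direction and their values are a description. *Cd22*, the receptor for the St6gal1 product, was at 336 to 367 in B cells and no higher than 0.448 in T cells. *Siglecg* was at 115 to 153 and at most 0.349. The level of *Cd22* thus differed far more between the cell types (8.37 on the log2 scale) than that of *St6gal1* (0.31).

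Acceptor glycans are built by 14 listed genes, of which 10 passed the filter, 5 called higher in B cells and 3 in T cells (median 0.21). *Gcnt1*, which branches core 1 into core 2 O-glycans, was at 19.7 to 22.7 in B cells and no higher than 0.173 in T cells (4.42 on the log2 scale). It passed the filter through B cells alone, so its direction was fixed. *Mgat1* (1.64) and *Mgat4a* (1.35), which start and branch complex N-glycans, were also higher in B cells. Of 5 glycolipid genes 4 passed the filter, with 1 called higher in B cells and 3 in T cells (median -0.82). *Ugcg*, which makes glucosylceramide, was at a median of 54.0 in B cells against 154 in T cells (-1.50 on the log2 scale). *B3galt4*, a later ganglioside enzyme, was at -1.12, and *B4galt5*, which makes lactosylceramide, the St3gal5 substrate, was higher in B cells at 1.07.

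Of 6 genes of fucosylation and selectin ligands 2 passed the filter, and both were called higher in T cells (median -1.69). *Selplg*, the P-selectin ligand, was at a median of 15.96 in B cells against 134 in T cells (-2.91 on the log2 scale), and *Fut8* followed at -0.47. All 5 genes of sialylated surface carriers were called, 2 higher in B cells and 3 in T cells (median -0.41). *Cd24a* was at 334 to 441 in B cells and no higher than 1.59 in T cells (7.49 on the log2 scale). *Cd5* (-6.53) and *Spn* (-4.54), which encodes CD43, were higher in T cells, and the B cells had been isolated as CD43 negative. *Cd5* passed the filter through T cells alone, so its direction was fixed.

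Between the sexes, and for the difference of the sex effects, no gene of the 8 lists was called by limma. At an unadjusted p under 0.05 stood 1 sialylated carrier between the sexes in T cells and 1 other sialyltransferase for the difference of the sex effects.

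**Figure D4:**
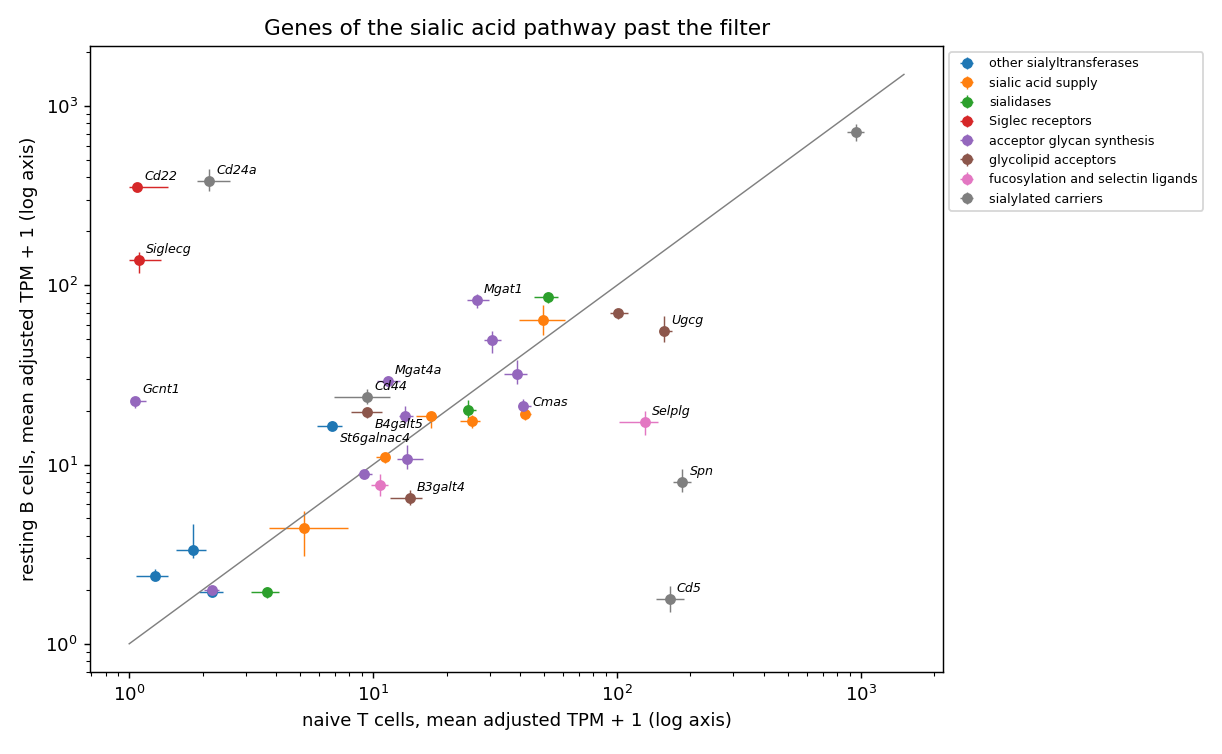
Mean adjusted TPM + 1 in B cells (vertical, log axis) against T cells (horizontal, log axis) for the genes of the 8 lists that passed the filter, with bars from the lowest to the highest of 6 libraries, colours for the lists and a grey line of equal level. *Cd22*, *Cd24a*, *Siglecg* and *Gcnt1* lie far above the line, and *Cd5*, *Spn* and *Selplg* far below it.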

How the data were processed

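RNA sequencing of 12 libraries (1 table) was used. Per the labels, ribosomal RNA was removed and strand-specific libraries were made, and the submitters' processing notes name Trim Galore, FastQC, STAR and mm10. The authors deposited a signal for each gene and library, called adjusted TPM, with a lower and an upper bound. The quantification tool, the adjustment, the interval level and the use of strand are not given in the sources used here. Some label fields read genomic DNA, and the values were treated as RNA.

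Log2(adjusted TPM + 1) values of genes at 1 or more in at least 3 libraries were fitted with limma 3.58.1 (R 4.3.3) with a mean-variance trend and 1 coefficient per group, which was tested on simulated data. Exact permutation tests used scipy 1.17.1. The genes and lists were chosen with earlier results of these data known. From each list the text names up to 3 called genes with the largest absolute difference, beside genes chosen after their values were seen, and 2 genes of the lists are not reported here. Positions are from GENCODE M21 (GRCm38), to which 97.9% of identifiers matched.

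Same-numbered female and male libraries deviated together in T cells (correlations of 0.721, 0.548 and 0.521 over genes kept), so the numbers pair them, while the source of the pairing is not stated. Alternatives were another pseudocount, filter, scaling or variance model, left-out libraries, a replicate block and fits within a cell type. Added after seeing the data were averages over the sexes by number and a minimum difference of 1.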

Additional observations from a re-analysis of the deposited data

How the results depend on the processing

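All 10 genes kept their direction and their call between B and T cells under each of the 19 alternatives fitted. These included leaving out each library and averaging the sexes by number. An absolute log2 difference of at least 1 was reached by 6 of the 10, against 21.6% of all genes kept. *St8sia1* and *St3gal5* were among the 6, and the filter had fixed the direction of both. With a pseudocount of 0.1 *St8sia1* was at -6.75, *St3gal5* at 2.64 and *St3gal4* at -2.59. None of the 10 was called between the sexes, or for the difference of the sex effects, under any alternative. Their uncalled sex differences changed sign in 5 fits that kept all libraries. With the total of 1000000 these were *St3gal5* (-0.012) and *St3gal6* (-0.060) in B cells and *St3gal3* (0.17) and *St6gal1* (0.28) in T cells, and with quantile normalization *St3gal1* (0.0061) in B cells. Leaving out 1 library changed signs in 28 fits. In B cells the ranges were -0.16 to 0.11 (*St3gal1*), -0.10 to 0.081 (*St3gal4*), -0.10 to 0.14 (*St3gal5*), -0.082 to 0.099 (*St3gal6*), -0.16 to 0.043 (*St8sia4*) and -0.033 to 0.25 (*St8sia6*). In T cells they were -0.039 to 0.061 (*St3gal2*), -0.035 to 0.015 (*St3gal3*) and -0.039 to 0.030 (*St6gal1*). For the difference of the sex effects they were -0.24 to 0.034 (*St3gal1*), -0.066 to 0.00030 (*St3gal3*), -0.24 to 0.011 (*St3gal5*), -0.14 to 0.0040 (*St6gal1*) and -0.23 to 0.059 (*St8sia6*).

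Counts over all genes moved more. Without the filter, over 41128 genes, 24591 were called between B and T cells, 10985 and 10607 between the sexes in B and T cells, and 11201 for the difference of the sex effects, against 9134, 18, 13 and 0, and the cause was not tested. The total of 1000000 gave 36, 23 and 16 for the last 3. A pseudocount of 0.1 gave 24 between the sexes in T cells and 1 for the difference, quantile normalization gave 1 and no trend 3 for the difference, and B cell libraries alone gave 5. Without 1 library the counts ran from 8717 to 9193, 12 to 18, 9 to 14 and 0 to 3, the 3 being without female T cell 6. A replicate block gave 14 between the sexes in B cells, 10 in T cells and 0 for the difference, and changed no call of the 10 genes. In B cells the same-numbered libraries did not deviate together (-0.169, -0.0382 and -0.337), so there they share only a number. Depth is unknown, which limits statements on *St8sia1* in B cells and *St3gal5* in T cells.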

Other observations

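By Pearson's r of log2 values over the 12 libraries, which fall into 2 cell types and share them, the genes most like *St8sia1* were *Hnrnpll* (0.9998), *Axin2* (0.9997) and *Zdhhc15* (0.9997). Those most like *St8sia6* were *Inpp4b* (0.996), *Itga6* (0.996) and *Cd226* (0.996), and those most like *St3gal3* were *Ell2* (0.999), *Irf5* (0.999) and *Ighv5-17* (0.999). With the group means removed, r fell to 0.922, 0.812 and 0.778 for the first 3. *Hnrnpll* encodes a splicing regulator and *Axin2* a target and inhibitor of Wnt signalling.

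Chosen after the values were seen, *St3gal5* in B cells was lowest in female B cell 1 (1.12) and male B cell 2 (1.16), the 2 libraries with the lowest sums of platelet genes (4.05 and 5.03). It was highest in male B cell 3 (1.92) and female B cell 2 (1.86), those with the highest sums (11.1 and 16.9). *St8sia6* was lowest and highest in the same pairs of libraries, at 4.54 and 4.07 against 6.54 and 6.04. Among B cell libraries, sums of erythroid genes were also lowest in female B cell 1 (0.912) and male B cell 2 (2.96), but highest in male B cell 1 (198). The part of platelet or erythroid RNA in the *St3gal5* and *St8sia6* values was not tested. With group means removed, *St3gal5* and *St8sia6* had an r of 0.77 over the 12 libraries, given as a description.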
